A study of Mus musculus with 16 samples.

Results

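The DNA replication genes described here are 39 genes whose products license replication origins, build and run the replication fork, supply nucleotides or open S phase. They were given as a list of gene symbols, and all 39 were found among the 24984 genes of the DP count table and the 24974 genes of the CD8 count table. Poly(A) RNA was sequenced from sorted DP thymocytes, the stage with CD4 and CD8 together on the cell surface, and from CD8 thymocytes sorted as TCRβ+CD8+ cells, in control mice and in conditional knockout (cKO) mice that lose Tox4, an HMG-box protein, in T cells. DP cells gave 3 samples per genotype and CD8 cells gave 5, and the cell types were counted in separate tables. The control mice, genotype Tox4;F/F, carried Tox4 alleles with exons 4 to 6 between loxP sites and no Cre. The cKO mice carried the same alleles with Cre under the proximal promoter of Lck, which acts from the DN3 stage, before cells become DP. Their genotype was written Tox4;F/F;Lck+ for DP samples and Tox4;F/F;Lck-cre for CD8 samples. The floxed line was made on a C57BL/6 background, and the study's methods give gender-matched littermates 6 to 8 weeks old. The labels do not say which samples shared a litter, so same-numbered samples are known only to share a number.

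Each round of DNA replication starts when the origin recognition complex, Cdc6 and Cdt1 load rings of Mcm proteins onto origins, and the rings become active helicases once Cdc45 and the GINS complex join them. DNA polymerase alpha with its primase then starts each new strand, polymerases epsilon and delta extend it with the sliding clamp Pcna, and Fen1 and Lig1 join the fragments of the lagging strand. In the thymus these genes are known for their high expression in the dividing cells that follow beta selection, whereas most small DP cells and mature CD8 cells divide little.

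By role the 39 members were 10 licensing genes (Orc1, Orc6, Cdc6, Cdt1, Mcm2, Mcm3, Mcm4, Mcm5, Mcm6 and Mcm7), 5 helicase activation genes (Mcm10, Cdc45, Gins1, Gins2 and Gins3) and 8 polymerase and primase genes (Pola1, Pola2, Prim1, Prim2, Pold1, Pold2, Pole and Pole2). The clamp and its loader had 5 (Pcna, Rfc2, Rfc3, Rfc4 and Rfc5), lagging strand joining had 2 (Fen1 and Lig1) and single-strand binding had 2 (Rpa1 and Rpa2). Nucleotide supply had 4 (Rrm1, Rrm2, Tyms and Tk1), and 3 more (Ccne1, Ccne2 and Uhrf1) serve the opening of S phase and maintenance methylation. All 39 passed the filter on low counts in every comparison.

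Total counts per sample ran from 14583336 to 25981683 in DP cells and from 8514135 to 13530783 in CD8 cells. The smallest count of any member in any sample was 23, for Gins2 in CD8 cKO replicate 5, so the members were counted well above 0 everywhere. Below, normalized CPM means counts relative to library size, scaled by TMM (the trimmed mean of M values of edgeR) within the DP or the CD8 table, and TPM means counts per base of exon, scaled to the same total in every sample. A gene was called when its adjusted p from edgeR, after the Benjamini-Hochberg method over all genes tested, was under 0.05, its fold change reached 1.5 and its mean TPM reached 1. Among the members, Mcm4, Gins3, Prim1, Pold2, Rfc2, Rfc4, Fen1, Tk1 and Ccne2 lie outside the rule for named genes, and where they are named below they were chosen after their values were seen.

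Tox4 itself was at 154, 172 and 180 normalized CPM in DP control replicates 1, 2 and 3, and at 133, 141 and 131 in the DP cKO samples. Every DP cKO sample lay below every DP control sample. The log2 fold change was -0.32 ± 0.11 (SE), 3 of 3 pairs were lower, and the edgeR p after Benjamini-Hochberg adjustment was 0.381, so Tox4 was not called. The exact permutation test gave 0.1, the smallest p that 3 against 3 samples allow. In CD8 control replicates 1 to 5, Tox4 was at 197, 188, 200, 201 and 178 normalized CPM. CD8 cKO replicates 1, 2, 3 and 5 stood at 169, 185, 176 and 164, and the library labelled cKO replicate 4 stood at 234, above every CD8 control. The CD8 groups therefore overlapped, with a log2 fold change of -0.06 ± 0.10 (SE), 4 of 5 pairs lower and an edgeR adjusted p (Benjamini-Hochberg) of 0.979. The floxed exons are only some of the exons counted for Tox4, so these counts measure the gene as a whole and not the deleted stretch. Whether the library labelled cKO replicate 4 carries the right label, or escaped deletion, was not tested and cannot be checked from gene counts. It was kept as a cKO sample.

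CD8 control replicate 1 stood apart from the other CD8 samples. It had at least 1 count for 17741 genes, where the other CD8 samples had between 13708 and 15054. Its 5 thymic epithelium genes summed to 6.18 TPM, with Foxn1 at 2.31, where the other CD8 samples had between 1.21 and 5.04. It was also highest of the CD8 samples in a further list of genes of another cell type, whose values are not given here. The part of such cells in its counts was not tested. Its 39 replication genes summed to 1800 TPM, the lowest sum of the 10 CD8 samples, and it was the lowest of all 10 in 30 of the 39 genes. For most of the lists and for some genes, results for CD8 cells are given below with it and without it.

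The marker genes followed the labelled cell types. Cd4 was at 1670 ± 197 TPM (SD, n = 3) in DP control samples and at 30.7 ± 32.9 (n = 5) in CD8 control samples, and Rag1, a recombinase subunit, was at 3610 ± 605 and 25.5 ± 24.8. Runx3, a CD8 lineage factor, was at 26 ± 6.01 TPM in DP control samples and at 467 ± 27.7 in CD8 control samples. The egress receptor S1pr1 was at 3.49 ± 1.99 and 780 ± 156 TPM. Erythroid genes summed to at most 0.641 TPM in any sample, with Hba-a1 and Hbb-bs at 0 throughout. The 5 thymic epithelium genes summed to between 1.21 and 12 TPM. The 4 macrophage or monocyte genes summed to between 29.1 and 83.1 TPM, the highest value being that of DP control replicate 2. Of 3 gamma delta T cell genes only Sox13 was in the tables, at 0.642 to 1.49 TPM in DP samples, 1.79 to 6.3 in CD8 control samples and 7.06 to 13.4 in CD8 cKO samples.

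Promoters are shown for 4 members, 2 of licensing, 1 of polymerases and 1 of nucleotide supply, because they display E2F letters or CCAAT. Of the 39 members, 32 had a promoter entry by symbol in the RefSeq table for build GRCm38.p6, which holds 250 bases before and 50 bases from the start site on. The members without an entry were Mcm4, Gins1, Gins2, Prim2, Pole, Rfc2 and Ccne2. The E2F letters searched were TTTCCCGC, TTTCGCGC, TTTGCCGC and TTTGGCGC, and E2F proteins are known as the factors that switch on S phase genes. The other letters were CCAAT, known as the CCAAT box, and TTTGAA, a form of the CHR element of cell cycle genes, and all were searched on both strands. E2F letters were in a promoter of 14 of the 32 members (43.8%) and of 704 of 27025 gene symbols (2.6%). CCAAT was in 20 of 32 members (62.5%) and in 41.1% of symbols, and TTTGAA was in 5 of 32 (15.6%) and in 20.2%. Both E2F letters and CCAAT were found in 9 members, and 7 members had neither.
Mcm7: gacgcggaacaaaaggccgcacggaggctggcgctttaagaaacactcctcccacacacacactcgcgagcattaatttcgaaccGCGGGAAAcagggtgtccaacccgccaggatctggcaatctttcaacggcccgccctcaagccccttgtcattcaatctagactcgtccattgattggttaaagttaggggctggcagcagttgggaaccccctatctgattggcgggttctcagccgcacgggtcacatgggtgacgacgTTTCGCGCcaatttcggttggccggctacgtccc
Orc1: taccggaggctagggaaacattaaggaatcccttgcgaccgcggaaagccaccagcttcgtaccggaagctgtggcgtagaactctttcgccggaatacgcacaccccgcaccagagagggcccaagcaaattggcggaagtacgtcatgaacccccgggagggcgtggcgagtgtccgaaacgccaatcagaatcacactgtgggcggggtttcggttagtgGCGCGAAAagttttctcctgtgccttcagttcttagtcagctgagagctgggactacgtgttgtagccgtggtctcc
Pole2: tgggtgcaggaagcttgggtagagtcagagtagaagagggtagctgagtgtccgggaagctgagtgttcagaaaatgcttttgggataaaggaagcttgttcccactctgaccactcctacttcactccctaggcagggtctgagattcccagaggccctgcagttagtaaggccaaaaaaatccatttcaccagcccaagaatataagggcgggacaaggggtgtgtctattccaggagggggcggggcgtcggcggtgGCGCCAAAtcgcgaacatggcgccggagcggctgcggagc
Rrm2: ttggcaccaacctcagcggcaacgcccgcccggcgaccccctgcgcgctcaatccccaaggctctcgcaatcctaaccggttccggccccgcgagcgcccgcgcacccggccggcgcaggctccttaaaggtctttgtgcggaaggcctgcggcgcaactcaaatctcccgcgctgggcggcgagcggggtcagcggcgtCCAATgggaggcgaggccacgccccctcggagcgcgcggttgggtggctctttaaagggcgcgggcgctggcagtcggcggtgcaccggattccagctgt
Capitals mark E2F letters in Mcm7, Orc1 and Pole2 and CCAAT in Rrm2, and each sequence reads 5′ to 3′ on the strand of its gene. Mcm7 (chr5:138171834-138172133, minus strand) had E2F letters starting 165 bases before the start site and again at base 16 after it, where the last base was shared with a CCAAT. In Orc1 (chr4:108579204-108579503, plus strand) the letters began 27 bases before the start site. In Pole2 (chr12:69228141-69228440, minus strand) they began at base 10 after it, and in Rrm2 (chr12:24708004-24708303, plus strand) CCAAT began 50 bases before it. In the entry nearest to each counted gene's start there were 18 E2F matches in 12 members, with a median first base of -34 and a range from -165 to 39. In Mcm5 and in Mcm6, 2 of these matches overlapped on opposite strands. A match describes the letters in the window and nothing about binding.

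**Figure D1:**
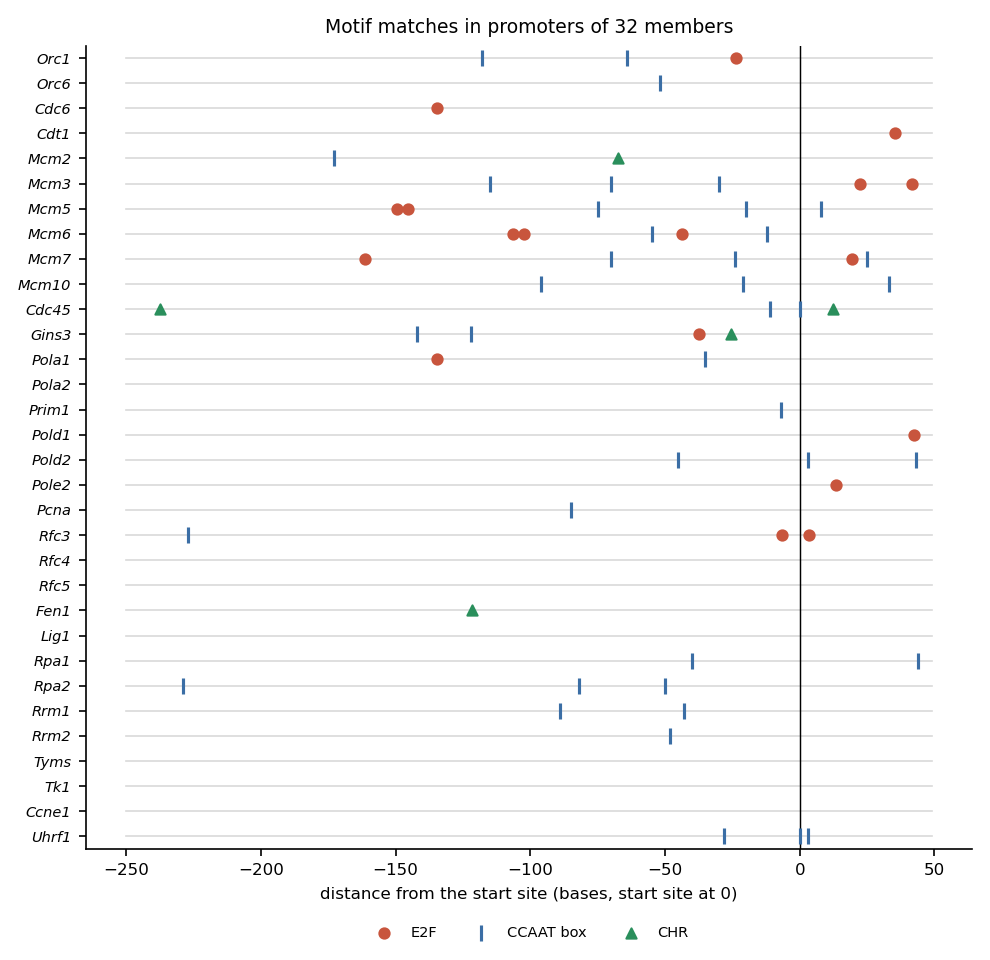
Positions of E2F letters, CCAAT and TTTGAA (CHR) in the promoter entry nearest to the counted start of each member that has an entry; the x axis is the distance from the start site in bases, and each mark is a match on either strand. E2F matches begin between -165 and 39 and have a median of -34.

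In DP control samples the mean level ran from 768 ± 102 TPM (SD, n = 3) for Pcna, the sliding clamp, down to 11.5 ± 0.957 for Orc1, the largest origin recognition subunit. Rrm2, the regulated subunit of ribonucleotide reductase, came next after Pcna at 317 ± 84.5 TPM, with Uhrf1, which brings maintenance methylation to new DNA, at 292 ± 69.6 and Mcm7 at 291 ± 46. These 3 neighbours did not differ beyond their spread. The Mcm subunits of the helicase ring, Mcm2 to Mcm7, lay between 127 and 291 TPM. In CD8 control samples Pcna was again highest at 295 ± 44 TPM (SD, n = 5), and Mcm7 was next at 157 ± 30. The ring subunits Mcm2 to Mcm7 lay within 113 to 157 TPM there, Rrm2 was at 67.6 ± 31.3, and Ccne2, an S phase cyclin, was lowest at 6.97 ± 3.86. Pole2, a subunit of polymerase epsilon, stood at position 38 of 39 in DP control samples and at position 17 in CD8 control samples.

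Summed over the 39 genes, DP control replicates 1, 2 and 3 held 4200, 4930 and 3610 TPM, and the DP cKO replicates held 5530, 4460 and 4880 TPM. DP control replicate 2 was above DP cKO replicates 2 and 3, so the groups overlapped, with means of 4250 ± 657 and 4960 ± 540 (SD, n = 3 each). The CD8 control replicates 1 to 5 held 1800, 2800, 2550, 2460 and 2890 TPM, and the CD8 cKO replicates held 2580, 2820, 2220, 2880 and 2790. The CD8 groups overlapped as well, with means of 2500 ± 427 and 2660 ± 272 (SD, n = 5 each). Every DP sample was above every CD8 sample. In bulk RNA, fewer dividing cells and less RNA of these genes per cell cannot be told apart.

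**Figure D2:**
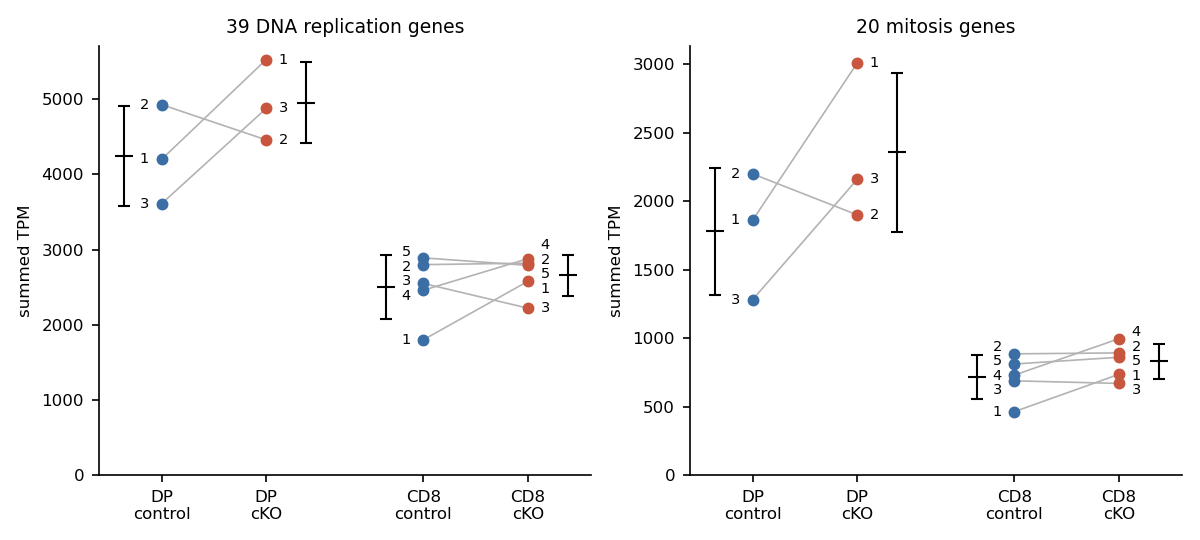
Summed TPM of the 39 DNA replication genes (left) and of 20 mitosis genes (right) in each sample; points are samples with their replicate numbers, lines join same-numbered samples, and the bars beside them are the mean and SD. Replication gene sums ran from 3610 to 5530 TPM in DP samples and from 1800 to 2890 TPM in CD8 samples.

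The comparison of DP cKO with DP control samples asks how mRNA of these genes differs in DP cells without Tox4. All 39 members had a log2 fold change above 0, from 0.01 for Rpa1 to 0.59 for Pole, with a median of 0.32 and quartiles of 0.19 and 0.39. Over all 11748 genes tested, 49.8% were above 0 and the median was -0.00, with quartiles of -0.15 and 0.15. No member passed the test, although the fold change of Pole reached 1.5: edgeR called 0 of the 39 members, against 17 genes, 0.145%, among all genes tested, and DESeq2 also called 0 members, where it called 1.35% of all genes. At an unadjusted p under 0.05 there were 9 members by edgeR, all higher in cKO, where 9.18% of all genes were under it in either direction and 5.07% were under it and higher. DESeq2 gave 9 members at that p as well, and 9.28% of all genes. With all 4 groups in a single fit edgeR gave 4 members, and the share of all genes in that fit was not determined. With 3 samples per group, 0 calls do not show that differences of this size are absent. In 8 members every cKO sample lay above every control sample, namely Orc1, Pola2, Pold2, Pole, Rfc2, Rfc3, Rfc4 and Rpa2, and 7.87% of all genes were separated that way. The reverse, every cKO sample below every control sample, was seen in 0 members and in 7.27% of all genes.

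The size of the difference depended on which samples were compared. In pair 1 all 39 members were higher in cKO, with a median log2 difference of 0.46, and in pair 3 there were 37 with a median of 0.52. In pair 2 only 10 of 39 were higher and the median was -0.11, from -0.58 for Rrm2 to 0.41 for Orc1. DP control replicate 2 was the highest control sample in 36 members, DP control replicate 3 was the lowest in 27, and DP cKO replicate 2 was the lowest cKO sample in 30. Without DP control replicate 2 the median was 0.44 and 23 members were under an unadjusted p of 0.05. Without DP control replicate 3 these values were 0.21 and 3 members, with 35 of 39 above 0. Without DP control replicate 1 there were 5 members, and without DP cKO replicate 1 there were 4, with 33 of 39 above 0. The share of all genes under that p was not determined with a sample left out, so these counts cannot be set beside it. DP control replicate 2 also had the highest sum of macrophage or monocyte genes, 83.1 TPM against 40.2 and 39.9 in the other controls, with Lyz2 at 58.3 TPM. It was highest of the DP samples in a further list of genes of another cell type as well, whose values are not given here. The part of such cells in the result was not tested.

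**Figure D3:**
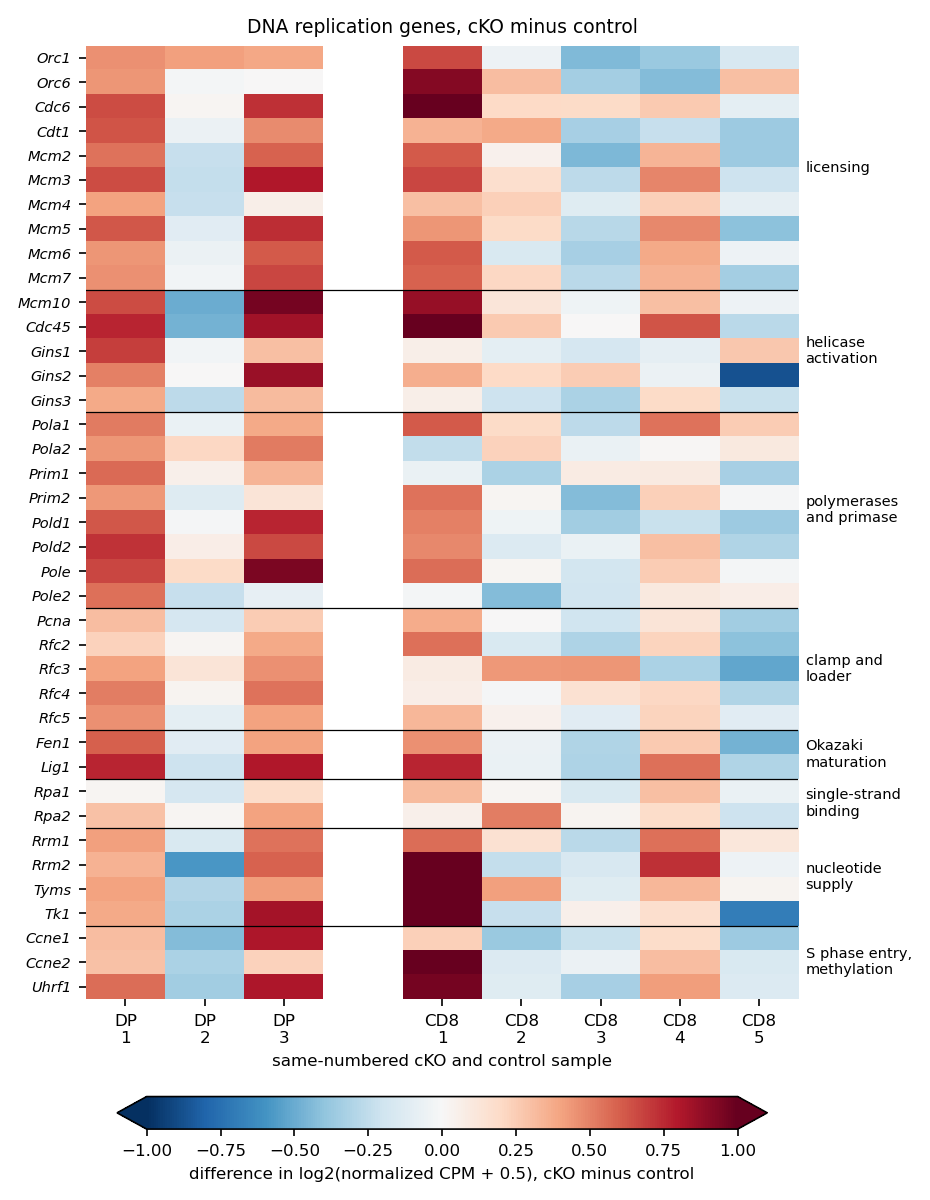
Color shows the difference in log2 of normalized CPM, cKO minus control (red higher, blue lower), for each of the 39 members, grouped by role, in every same-numbered pair of DP and of CD8 samples. The median over members was 0.46, -0.11 and 0.52 in DP pairs 1 to 3 and 0.54, 0.02, -0.19, 0.24 and -0.21 in CD8 pairs 1 to 5.

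Among the 10 licensing genes the median log2 fold change in DP cells was 0.34, from 0.07 for Mcm4 to 0.45 for Cdc6. Orc1 was at 12.1, 13.1 and 11.3 normalized CPM in DP control replicates 1 to 3 and at 16.8, 17.6 and 14.9 in cKO. All 3 cKO samples were above all 3 controls, and the 3 pair differences were close together at 0.46, 0.41 and 0.39. Orc1 had a log2 fold change of 0.43 ± 0.16 (SE), higher in 3 of 3 pairs, with an edgeR adjusted p (Benjamini-Hochberg) of 0.408. Cdc6, which helps load the Mcm ring, was at 53.8, 62.7 and 35.3 normalized CPM in control and at 84.6, 63.6 and 59 in cKO. Control replicate 3 was low and control replicate 2 lay among the cKO samples, so the groups overlapped, at a log2 fold change of 0.45 ± 0.22 (SE). Mcm7 was at 268, 355 and 259 normalized CPM in control and at 369, 347 and 411 in cKO. Here control replicate 2 lay above cKO replicate 2 and the groups overlapped, at a log2 fold change of 0.35 ± 0.14 (SE).

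The 5 helicase activation genes had a median of 0.37, from 0.18 for Gins3 to 0.44 for Gins2. Cdc45, which joins the Mcm ring to form the working helicase, was at 34.4, 44.7 and 26.2 normalized CPM in control and at 58.4, 32.2 and 47.2 in cKO. Its pair differences were 0.76, -0.47 and 0.84, so the direction in pair 2 was opposite to that in the others. Gins2, a GINS subunit, was at 12.5, 16.6 and 9.97 normalized CPM in control and at 17.9, 16.6 and 18.5 in cKO. The replicate 2 samples of both groups were equal to 3 digits, and the log2 fold change was 0.44 ± 0.20 (SE).

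The 8 polymerase and primase genes had a median of 0.36 and held the members with the smallest p. Pole, the catalytic subunit of the leading strand polymerase epsilon (chr5:110286319-110337453), was at 68.3, 80.4 and 51.4 normalized CPM in control and at 109, 91.8 and 99.5 in cKO. All cKO samples were above all controls, with control replicate 3 lowest and cKO replicate 1 highest. Its log2 fold change was 0.59 ± 0.17 (SE), higher in 3 of 3 pairs, and its edgeR adjusted p (Benjamini-Hochberg) of 0.281 was the smallest among the members. Pola2, the B subunit of polymerase alpha, was at 64.7, 72 and 67.9 normalized CPM in control and at 88.1, 83.2 and 97.3 in cKO. These groups did not overlap, with a log2 fold change of 0.39 ± 0.12 (SE), 3 of 3 pairs higher and an edgeR adjusted p (Benjamini-Hochberg) of 0.299. Pold2, the second subunit of polymerase delta, was at 31.4, 41.2 and 34.4 normalized CPM in control and at 51.9, 43.3 and 54.6 in cKO, so its groups were also apart. Pold1, the catalytic subunit of that polymerase, was at 94.8, 125 and 96.4 in control and at 146, 124 and 164 in cKO. Control replicate 2 was just above cKO replicate 2 in Pold1, at a log2 fold change of 0.45 ± 0.15 (SE). Pole2 was at 10.6, 10.3 and 9.38 normalized CPM in control and at 15.7, 8.68 and 8.88 in cKO. The Pole2 value of cKO replicate 1 was high and the other cKO samples were below every control, so its log2 fold change of 0.14 ± 0.25 (SE) was -0.20 without cKO replicate 1.

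For the clamp and its loader the 5 genes had a median of 0.24. Pcna was at 308, 401 and 309 normalized CPM in DP control samples and at 381, 355 and 366 in cKO. Control replicate 2 was the highest of all 6 samples, and the log2 fold change of 0.12 ± 0.13 (SE) was the smallest of the clamp and loader genes. Rfc3, a subunit of the clamp loader, was at 21.7, 23.5 and 18.9 normalized CPM in control and at 28.9, 25.8 and 26.2 in cKO. Its groups did not overlap, and its log2 fold change was 0.33 ± 0.14 (SE). Lig1, the ligase of the lagging strand, was at 110, 167 and 108 normalized CPM in control and at 187, 144 and 189 in cKO, where control replicate 2 lay above cKO replicate 2. Lig1 had a log2 fold change of 0.43 ± 0.19 (SE), and Fen1, the flap nuclease, had 0.31 ± 0.16 (SE).

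Rpa1, the large subunit of the single-strand binding protein, was at 198, 234 and 200 normalized CPM in control and at 201, 208 and 226 in cKO. The 6 samples were mixed together, with a log2 fold change of 0.01 ± 0.11 (SE), whereas Rpa2 had 0.24 ± 0.12 (SE) with separate groups. The 4 nucleotide supply genes had a median of 0.20. Rrm2 was at 258, 295 and 172 normalized CPM in control and at 328, 197 and 259 in cKO, so samples of both groups were spread over the same range. Its log2 fold change was 0.11 ± 0.23 (SE), and it was -0.09 without DP control replicate 3 and -0.08 without DP cKO replicate 1. Uhrf1 was at 353, 477 and 291 normalized CPM in control and at 522, 375 and 510 in cKO, and control replicate 2 lay above cKO replicate 2. Uhrf1 had a log2 fold change of 0.33 ± 0.20 (SE), beside 0.20 ± 0.23 for Ccne1 and 0.10 ± 0.45 for Ccne2, the cyclins that open S phase. Ccne2 was at -0.50 without DP cKO replicate 1 and at 0.47 without DP control replicate 1.

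**Figure D4:**
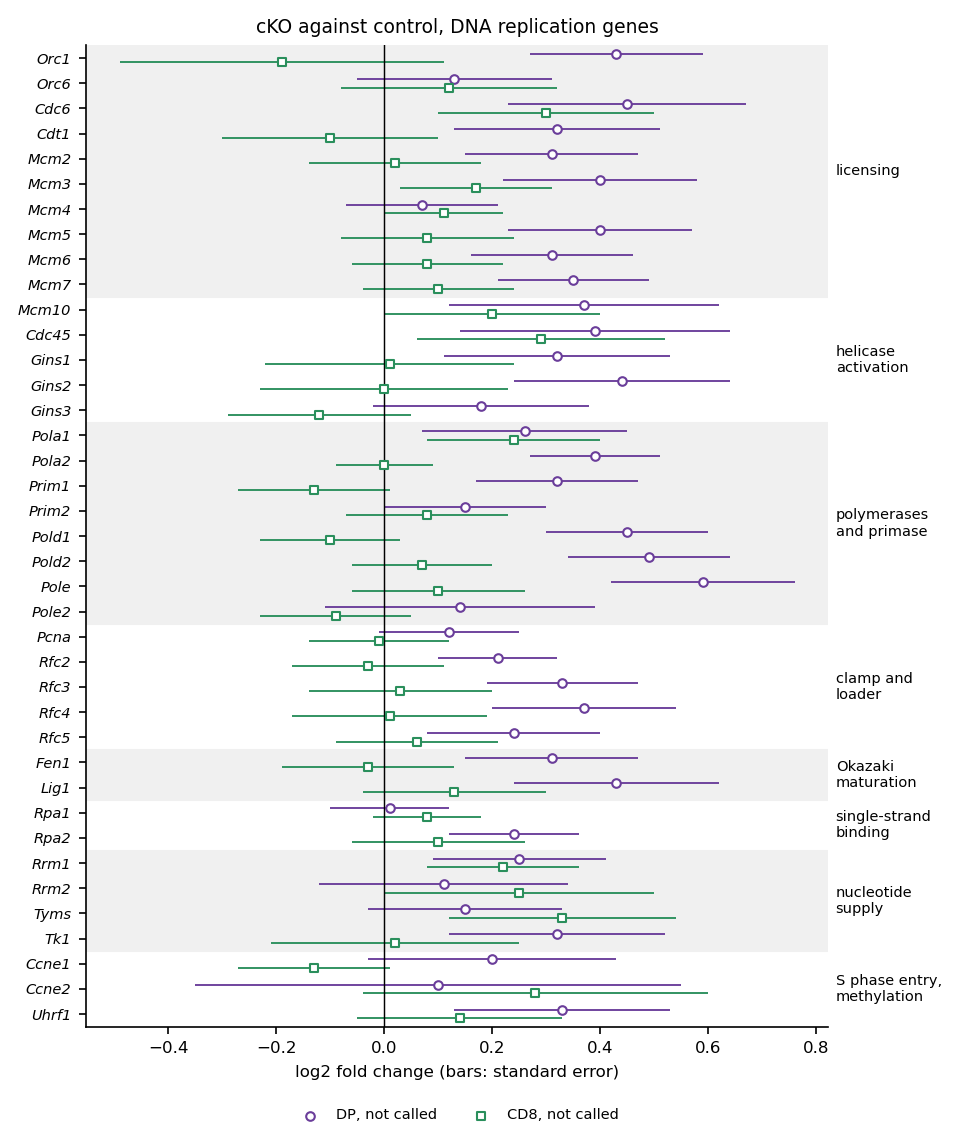
Log2 fold change of each of the 39 members between cKO and control in DP and in CD8 samples, grouped by role; points are edgeR estimates and bars are their standard errors. All 39 DP estimates are above 0, with a median of 0.32, and the CD8 estimates run from -0.19 to 0.33, with a median of 0.08.

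Other genes of the pathway were described in the same way. Of 50 further replication genes, edgeR called 0 in DP cells, DESeq2 called 1, and 10 had an unadjusted p under 0.05 by edgeR (9.18% of all genes), 8 of them higher (5.07%). Their median log2 fold change was 0.20, with 40 of 50 above 0 (49.8% of all genes). The lowest was Samhd1, which breaks down dNTPs, at -0.91 ± 0.17 (SE), and the highest was Recql4, a helicase, at 0.55, both named after their values were seen. Of 20 mitosis genes edgeR and DESeq2 called 0, 3 had an unadjusted p under 0.05 by edgeR and 5 by DESeq2, and all 20 were above 0 with a median of 0.39. The mitosis genes summed to 1860, 2200 and 1280 TPM in DP control replicates 1 to 3 and to 3010, 1900 and 2160 in cKO, so these groups overlapped too.

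Markers of other cells also differed between the DP groups, in both directions. The 4 genes of the double-negative or immature single-positive list summed to 66.3, 57.3 and 47.9 TPM in DP control samples and to 101, 81.6 and 94 in DP cKO samples, without overlap, and none of the 4 was at 0. The higher sum came from Notch3 alone, at 42.7 ± 5.42 TPM in control and 83.4 ± 10.6 in cKO (SD, n = 3 each). Il2ra and Kit were lower in every cKO sample than in every control sample, at 10.6 ± 3.78 and 6.22 ± 0.387 TPM and at 2.24 ± 0.904 and 1.09 ± 0.366. Hes1 was at 1.63 ± 0.432 and 1.62 ± 1.26 TPM, so the 4 genes did not move together. Of the 8 genes listed for CD8 thymocytes, 3 were lower in cKO without overlap. Ccr7 was at 24.5 to 48.6 TPM in DP control samples and 13.6 to 17.1 in DP cKO samples, S1pr1 at 2.29 to 5.79 and 0.951 to 1.54, and Cd8a, which DP cells also express, at 1780 to 2340 and 1260 to 1700. The other 5 overlapped, with lower cKO means for Cd8b1, Klf2, Il7r and Nkg7 and a higher one for Runx3, at 26 ± 6.01 and 27.7 ± 2.03 TPM. Among macrophage or monocyte genes, Lyz2 was at 18.1 to 58.3 TPM in control and 9.84 to 10.7 in cKO and Csf1r at 1.42 to 3.35 and 0.744 to 0.953, whereas Cd68 was higher in cKO, at 16.4 to 20 and 23.4 to 32.8, and Adgre1 overlapped. Of the 5 epithelial genes, Epcam was also lower in every DP cKO sample, at 6.74 to 11.2 TPM in control and 4.47 to 5.89 in cKO. So was Krt5, at 0.149 to 0.643 and 0 to 0.141 TPM, values near 0 in both groups. In normalized CPM, 7.27% of all genes tested were lower in every cKO sample and 7.87% were higher. The DP cells were sorted, and the part of any other cells in the replication gene values was not tested.

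In CD8 cells the cKO and control samples differed little in these genes. Of the 39 members, 29 had a log2 fold change above 0, where 48.4% of all 11227 genes tested did, and the median was 0.08 beside -0.01 for all genes. edgeR called 0 members, against 11 genes or 0.098% of all genes, and DESeq2 called 0 members and 0.472% of all genes. At an unadjusted p under 0.05 there were 0 members by edgeR and 0 by DESeq2, where 5.6% and 5.87% of all genes were under it. In 0 members were the groups apart, against 1.5% of all genes. The estimates ran from -0.19 ± 0.30 (SE) for Orc1 to 0.33 ± 0.21 (SE) for Tyms, which makes thymidylate. Without CD8 control replicate 1 only 17 of 39 members were above 0, the median was -0.01, and the estimates ran from -0.40 ± 0.21 for Orc1 to 0.17 ± 0.16 for Tyms. Without both CD8 samples numbered 1 these were 18 of 39 and -0.01. Without the library labelled cKO replicate 4 there were 23 of 39 above 0 and a median of 0.01, and the median was 0.15 without CD8 control replicate 5 and 0.14 without CD8 cKO replicate 3. Members under the unadjusted p numbered 2 without CD8 control replicate 2, and 1 without CD8 control replicate 5 or without CD8 cKO replicate 3. For these settings the share of all genes under that p was not determined.

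The 5 CD8 pairs pointed in different directions. In pair 1, 36 of 39 members were higher in cKO with a median log2 difference of 0.54, and in pair 4, whose cKO sample is the library labelled cKO replicate 4, there were 32 with a median of 0.24. In pairs 2, 3 and 5 there were 21, 8 and 7 members higher, with medians of 0.02, -0.19 and -0.21. CD8 control replicate 1 was the lowest control in 31 members, and CD8 cKO replicate 3 was the lowest cKO sample in 22.

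By role, the CD8 median log2 fold changes were 0.09 for licensing, 0.01 for helicase activation, 0.04 for polymerases and primase, 0.01 for the clamp and loader, and 0.24 for nucleotide supply. Without CD8 control replicate 1 these were -0.03, -0.00, -0.02, -0.03 and 0.11. Tyms was at 7.72, 18.4, 14.8, 14.5 and 16.9 normalized CPM in CD8 control replicates 1 to 5 and at 17.2, 24.6, 13.6, 18.4 and 17.2 in cKO. Control replicate 1 was far below the rest, and the other controls lay among the cKO samples. The log2 fold change of Tyms was higher in 4 of 5 pairs, with an edgeR adjusted p (Benjamini-Hochberg) of 0.979 at 0.33 ± 0.21 (SE), or 0.17 ± 0.16 without control replicate 1. Orc1 was at 2.61, 6.97, 8.12, 10.9 and 8.53 normalized CPM in CD8 control samples and at 4.43, 6.71, 5.85, 8.34 and 7.59 in cKO, so control replicate 1 was lowest and control replicate 4 highest of all 10. The log2 fold change of Orc1, -0.19 ± 0.30 (SE), was -0.40 ± 0.21 without control replicate 1. Pcna was at 90.2, 126, 107, 127 and 125 normalized CPM in CD8 control samples and at 116, 126, 92.5, 139 and 97.6 in cKO. These Pcna groups covered the same range, with a log2 fold change of -0.01 ± 0.13 (SE), or -0.08 ± 0.12 without control replicate 1. Mcm7 was at 99, 142, 148, 141 and 169 normalized CPM in control and at 149, 164, 123, 180 and 133 in cKO, again with control replicate 1 lowest. Its log2 fold change was 0.10 ± 0.14 (SE), or -0.00 ± 0.11 without control replicate 1.

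Among the 50 further replication genes in CD8 cells edgeR and DESeq2 called 0, and 3 had an unadjusted p under 0.05 by each tool (5.6% of all genes by edgeR). Their median was 0.05, with 35 of 50 above 0 (48.4% of all genes). The 20 mitosis genes had 0 calls by either tool, 0 at an unadjusted p under 0.05 by either, and a median of 0.13 with 18 above 0. Without CD8 control replicate 1 the medians were -0.01 with 24 of 50 above 0 and 0.04 with 13 of 20 above 0. The list for double-negative or immature single-positive cells summed to 61, 61.8, 40.7, 36.2 and 44.3 TPM in CD8 control samples and to 65.1, 65.1, 75.3, 55.5 and 92.1 in cKO, with Kit its most abundant gene.

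Whether the change in CD8 cells differed from that in DP cells was tested as an interaction in a fit of all 4 groups. edgeR called 0 of 39 members, against 13 of 12131 genes or 0.107%, and DESeq2 called 0 members and 0.305% of all genes. The median difference, CD8 change minus DP change on the log2 scale, was -0.25 for the members and -0.01 for all genes, and 5 of 39 members were above 0 where 48.2% of all genes were. There were 3 members with an unadjusted p under 0.05 by edgeR and 3 by DESeq2, where 5.27% and 6% of all genes were under it. By edgeR all 3 were lower, as were 1.79% of all genes under that p, namely Pola2 at -0.39 ± 0.15 (SE), Pold1 at -0.56 ± 0.22 and Prim1, the catalytic primase subunit, at -0.45 ± 0.21. Pola2 had the smallest adjusted p by edgeR and Benjamini-Hochberg, 0.8, at a difference of -0.39, with 3 of 3 DP pairs and 3 of 5 CD8 pairs higher in cKO. The members' median was -0.40 without DP control replicate 2, with 6 members under the unadjusted p and 1 above 0. Without DP control replicate 3 there were 11 members above 0 and 1 under the unadjusted p, and without DP cKO replicate 1 there were 13 and 2. Without CD8 control replicate 1 there were 3 above 0 and 5 under the unadjusted p, where 722 of 12045 genes were under it. For the other samples left out, the share of all genes under that p was not determined.

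Outside the members, 1 of the 50 further replication genes passed the interaction test. Samhd1, named after its values were seen, was at 24.6 ± 3.75 normalized CPM in DP control and 13.1 ± 1.51 in DP cKO (SD, n = 3 each), with all 3 cKO samples below all 3 controls. In CD8 cells it was at 291 ± 39.5 and 316 ± 26.7 (SD, n = 5 each). The interaction was 1.02 ± 0.18 (SE), with an edgeR adjusted p (Benjamini-Hochberg) of 0.0499, lower in 3 of 3 cKO samples of DP cells and overlapping in CD8 cells. Without DP control replicate 2, and without DP cKO replicate 2, 0 genes passed the interaction test, Samhd1 included.

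CD8 and DP cells differed far more than cKO and control samples did. This comparison asks how replication genes differ between DP cells and the more mature CD8 cells. Each cell type has its own count table, so cell type and experiment cannot be told apart. Between control samples, edgeR called 25 of 39 members, where 44.3% of 11758 genes were called. Of these, 24 members fell (22.3% of all genes fell) and 1 rose (22% of all genes rose), and the median log2 fold change, CD8 over DP, was -0.73 beside -0.01 for all genes. Here and below, fell and rose in counts of genes mean called lower and called higher. Between cKO samples, 32 members fell and 1 rose out of 39, where 26% and 22.6% of 11740 genes did so and 48.6% were called in all. The median was -1.03 there, beside -0.06 for all genes. DESeq2 called 25 members between control samples, with 44.5% of all genes, and 30 between cKO samples, with 48.8%. The same samples enter these fits and the cKO comparisons, so the results are not independent. Without CD8 control replicate 1, 22 members fell and 1 rose between control samples, at a median of -0.64. In TPM, every CD8 control sample was below every DP control sample in 21 of 39 members (25.8% of all genes) and above in 3 (29.8%). For cKO samples these were 29 members (25.6%) below and 1 (31.7%) above.

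Nucleotide supply fell most, with 4 of 4 genes called lower between control samples and a median of -1.77, or -1.60 without CD8 control replicate 1. Rrm2 was at 357, 375 and 220 TPM in DP control samples and at 34.1, 117, 58.6, 53.5 and 74.3 TPM in CD8 control samples. Every CD8 sample was below every DP sample, with CD8 control replicate 1 lowest. Rrm2 fell by 2.31 on the log2 scale, with an edgeR adjusted p (Benjamini-Hochberg) of 3.28e-05 and 5 of 5 CD8 samples below the DP samples. Without CD8 control replicate 1 the log2 fold change of Rrm2 was -2.14 ± 0.25 (SE). On the same scale Tyms fell by 1.89 and Tk1, thymidine kinase, fell by 1.65.

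Helicase activation genes fell in 5 of 5 cases, with a median of -1.11 and Gins2 lowest at -1.42. Without CD8 control replicate 1 all 5 were still called lower, with a median of -0.92. Clamp and loader genes were called lower in 4 of 5 cases, Rfc2 being the exception at -0.33. Pcna was at 738, 882 and 684 TPM in DP control samples and at 225, 335, 279, 317 and 319 TPM in CD8 control samples, so the cell types were far apart. Pcna fell by 1.46 on the log2 scale, with 5 of 5 CD8 samples below the DP samples and an edgeR adjusted p (Benjamini-Hochberg) of 2.59e-06. Both lagging strand genes fell, Fen1 at -1.15 and Lig1 at -1.09. Uhrf1 was at 292, 362 and 223 TPM in DP control samples and at 65.8, 160, 102, 95.3 and 117 TPM in CD8 control samples, and its log2 fold change was -1.52 ± 0.22 (SE). Ccne2 fell at -1.38, whereas Ccne1 was not called at -0.03 ± 0.22 (SE). Rpa2 fell at -1.03, and Rpa1 was not called at -0.57 ± 0.11 (SE), but it was called with upper-quartile normalization (-0.59), without DP control replicate 1 (-0.61), without DP control replicate 3 (-0.60), without CD8 control replicate 2 (-0.59) and without CD8 control replicate 5 (-0.61).

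Licensing genes were called lower in 4 of 10 cases between control samples and in 9 of 10 between cKO samples. In both comparisons 0 of the 10 had a log2 fold change above 0. Without CD8 control replicate 1, 3 were called lower between control samples and 1 was above 0. Mcm7 fell, at -0.97 ± 0.16 (SE), and Mcm4, from the same ring, was not called at -0.04 ± 0.13. Mcm4 was at 118, 144 and 119 TPM in DP control samples and at 98.7, 132, 134, 133 and 150 TPM in CD8 control samples, where the cell types overlapped. Mcm7 was at 281, 341 and 251 TPM in DP control samples and at 108, 165, 169, 153 and 189 TPM in CD8 control samples, without overlap.

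Polymerase and primase genes had the highest median of the roles between control samples, 0.02, with 4 of 8 above 0. Of the 8, 2 were called lower and 1 was called higher. Without CD8 control replicate 1 the median was 0.09, with 4 of 8 above 0, 1 called lower and 1 called higher. Between cKO samples their median was -0.43, with 1 of 8 above 0, 4 called lower and 1 called higher. The gene called higher was Pole2 (chr12:69201779-69228190), at 18.8, 16.8 and 15.4 TPM in DP control samples and at 40.4, 55.5, 57.3, 47.1 and 57.6 TPM in CD8 control samples. Every CD8 sample was above every DP sample, and the DP samples were close together. Pole2 rose by 1.52 ± 0.15 (SE) on the log2 scale, with an edgeR adjusted p (Benjamini-Hochberg) of 5.47e-06 and 5 of 5 CD8 samples above the DP samples. Between cKO samples it rose by 1.26 ± 0.23 (SE), from 26.9, 14.4 and 13.8 TPM in DP to 40.8, 40.2, 50.5, 49.7 and 68 TPM in CD8. In the GENCODE M21 annotation 245 exon bases of Pole2 (8.5%) are shared on the same strand with Gm49384, and the part of that transcript in the counts was not tested. Pole, its partner in the same polymerase, was at 28.9, 31.2 and 20.1 TPM in DP control samples and at 21.5, 37.4, 37.2, 33.9 and 46.7 TPM in CD8 control samples. The cell types overlapped for Pole through CD8 control replicate 1 alone, since the other CD8 control samples lay above every DP control sample. Its log2 fold change was 0.33 ± 0.21 (SE) and was not called. Without CD8 control replicate 1 it was 0.47 ± 0.16 (SE), with an edgeR adjusted p (Benjamini-Hochberg) of 0.0264, and was not called either. Pola1, the catalytic subunit of polymerase alpha, fell at -0.60 ± 0.20 (SE) between control samples. This call ended without DP control replicate 2 (-0.41), without CD8 control replicate 1 (-0.47) and without CD8 control replicate 4 (-0.55). Between cKO samples Pola1 fell at -0.66 ± 0.15 (SE), and that call ended without DP cKO replicate 1 (-0.50).

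**Figure D5:**
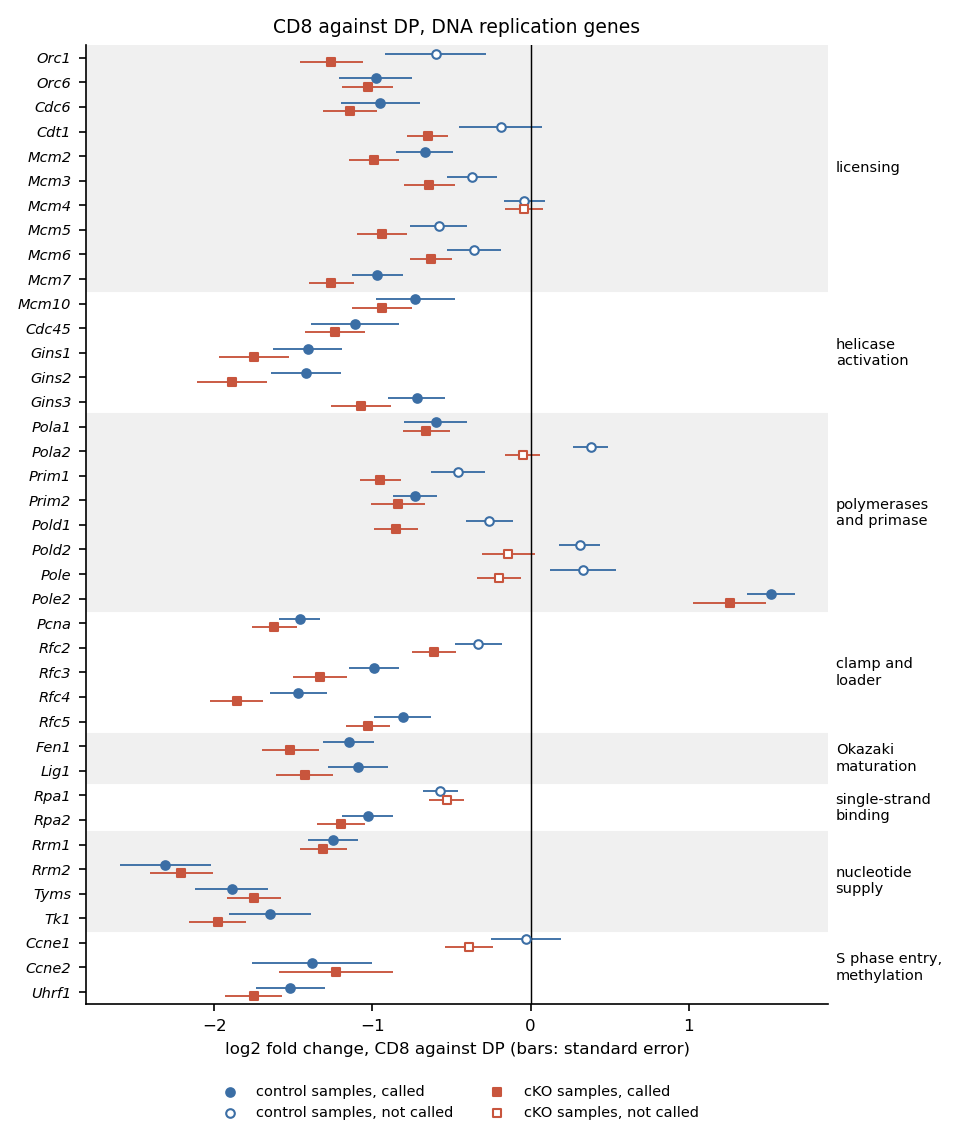
Log2 fold change of each of the 39 members, CD8 against DP, in control samples (circles) and in cKO samples (squares), grouped by role; filled symbols were called by edgeR and bars are standard errors. Pole2 lies to the right of 0 at 1.52 in control samples, and Rrm2 lies farthest to the left at -2.31.

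Between control samples 22 of 50 further replication genes fell and 3 rose, with a median of -0.50, where 22.3% of all genes fell and 22% rose. The 3 that rose, named after their values were seen, were Orc3 at 0.70, Mcmbp at 0.75 and Samhd1 at 3.67. Of 20 mitosis genes 15 fell and 0 rose by edgeR, with 15 called by DESeq2 and a median of -1.59. Without CD8 control replicate 1, 21 of the further replication genes fell, with a median of -0.38. In that setting 15 mitosis genes fell, with a median of -1.44. Mki67, a marker of cycling cells named after its value was seen, was the mitosis gene not below 0, at 0.44 ± 0.25 (SE), and it was not called. Between cKO samples 27 further replication genes fell and 4 rose, and 19 of 20 mitosis genes fell, where 26% of all genes fell and 22.6% rose.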

How the data were processed

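The authors deposited fragment counts per gene for each sample, raw counts with no normalization, in a DP and a CD8 table. By the submitters' processing notes, reads were filtered with fastp 0.13.1, aligned to mm10 with HISAT2 2.1.0 and counted with featureCounts 1.6.1 in strand-specific mode. The gene length column of the DP table was used as deposited. The CD8 columns headed Ctrl and Tox4_KO were taken as control and cKO, and replicates are separate samples by their labels. Fits were made in R 4.3.3 with edgeR 4.0.16 (filterByExpr, TMM, quasi-likelihood F test, Benjamini-Hochberg over all genes tested), each on all genes passing the filter, and all 39 members passed it in every comparison. DP and CD8 were fitted apart for cKO against control, all 4 groups together for the interaction (called at an adjusted p under 0.05), and DP with CD8 samples of 1 genotype on genes in both tables for the cell types. Exact permutation tests were 2-sided and pair differences used log2 of normalized CPM plus 0.5. Other steps used numpy 2.4.6, pandas 2.3.3, scipy 1.17.1 and matplotlib 3.10.9.

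The members and lists were chosen with earlier results of these data known. Named genes were Tox4, any member called between cKO and control, in each role the member with the smallest unadjusted p in DP, that in CD8 and that with the highest mean TPM in DP control, the largest rise and fall in each cKO comparison, and the 2 members with the largest and the 2 with the smallest CD8 against DP fold change. Other genes given by value were chosen after their values were seen, apart from the cell type markers. Alternatives were RLE and upper-quartile normalization, DESeq2 1.42.0, the replicate number as a block, each sample left out, no filter or at least 10 counts in every sample, adjusted p alone, all 4 groups in a single fit, and leaving out both CD8 samples numbered 1. The fits were tested on simulated data. Total counts per sample run from 8514135 to 25981683, and no sample was left out of the values reported unless stated.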

Additional observations from a re-analysis of the deposited data

Results flagged for a closer look

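The number of genes with at least 1 count was 17741 in CD8 control replicate 1, and the nearest other CD8 control sample had 14194. The gap was 0.879 of the range of the 5 CD8 control samples, above the limit of 0.71 for a group of 5. There were 52 groups of samples tested in this way, and chance gives about 1 in 20, or 2.6 of the 52.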

How the results depend on the processing

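0 members were called by edgeR between cKO and control samples, or in the interaction, under every alternative run, DESeq2 included. For single genes 1503 values kept their direction and side of the threshold, 68 turned direction, 8 passed and 5 ceased to pass. Of the counts and medians 208 stayed and 36 moved, and the cause was not tested. In DP cells genes called moved from 17 to 159 with DESeq2, 131 with the replicate block, 74 with no filter and 42 with all 4 groups in a single fit, and ran from 0 to 8 with a sample left out. In CD8 cells they moved from 11 to 53 with DESeq2, 31 with the replicate block and 5 without both samples numbered 1, and ran from 4 to 20 with a sample left out. In the interaction they moved from 13 to 3 with upper-quartile normalization, 37 with DESeq2, 33 with the replicate block and 6 without both CD8 samples numbered 1, and ran from 0 to 11 with a sample left out. Between cell types in control samples the members' median moved from -0.73 to -0.96 with the replicate block. Members under an unadjusted p of 0.05 in DP cells moved from 9 to 16 with the replicate block, where 16.5% of all genes were under it. Between cell types in control samples the replicate block ended the call of Pola1 (-0.65) and brought calls of Orc1 (-1.04) and Rpa1 (-0.62), and in cKO samples it brought a call of Rpa1 (-0.60).

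Same-numbered samples correlated across genes at 0.682, 0.0936 and 0.323 in DP and at 0.377, 0.324, 0.338, 0.332 and 0.0952 in CD8, after group means were removed, and 2 of 6 DP and 6 of 10 CD8 samples correlated best with their own number. The mean correlation was 0.366 in DP and 0.293 in CD8 for the same number, against -0.175 and -0.0761 for other numbers. Because group means were removed, the values for other numbers follow largely from those for the same number and add no separate information. Because the labels name no shared litter, same-numbered samples were not treated as pairs in the tests reported, and the replicate block was run as an alternative.

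Signs turned for these log2 fold changes of named genes, in settings other than a single sample left out. Other members turned as well. In CD8 cells 29 of all 39 members were above 0 in the values reported. There were 27 with the replicate block and 18 without both samples numbered 1. In CD8 cells upper-quartile normalization gave -0.00 for Gins2 and -0.00 for Pola2, the replicate block gave -0.02 for Gins2, and leaving out both samples numbered 1 gave -0.09 for Gins2, -0.00 for Lig1 and -0.03 for Uhrf1. In the interaction that last setting gave -0.07 for Rrm2, and 2 of all 39 members were above 0, against 5 in the values reported. Between cell types the replicate block gave 0.01 for Ccne1 in control samples, and for Pola2 in cKO samples RLE gave 0.01 and DESeq2 gave 0.01. Of all 39 members, 3 were above 0 in cKO samples with RLE and 3 with DESeq2, against 1 in the values reported.

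With a sample left out in turn, a sign turned in 8 of 39 members in DP cells, 19 in CD8 cells, 13 in the interaction, and 2 each between cell types in control and in cKO samples. Outside the named genes the widest in DP cells was Ccne2, from -0.50 to 0.47. Among named genes, values in DP cells ran from -0.20 to 0.28 for Pole2, -0.04 to 0.09 for Rpa1, -0.09 to 0.28 for Rrm2 and -0.01 to 0.44 for Ccne1. In CD8 cells they ran from -0.00 to 0.18 for Mcm7, -0.11 to 0.14 for Gins2, -0.04 to 0.05 for Pola2, -0.03 to 0.22 for Pole, -0.09 to 0.06 for Pcna, -0.03 to 0.11 for Rfc3 and -0.02 to 0.15 for Rfc5. In the interaction they ran from -0.33 to 0.05 for Cdc6, -0.31 to 0.10 for Cdc45, -0.21 to 0.13 for Pola1, -0.38 to 0.11 for Pole2, -0.00 to 0.14 for Rpa1, -0.20 to 0.10 for Rrm1, -0.05 to 0.40 for Rrm2 and -0.05 to 0.30 for Tyms. Between cell types they ran from -0.22 to 0.21 for Ccne1 in control samples and from -0.10 to 0.04 for Pola2 in cKO samples.

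The members' median with a sample left out in turn ran from 0.21 to 0.44 in DP, -0.01 to 0.15 in CD8 and -0.40 to -0.17 in the interaction. Between cell types it ran in the same way from -0.86 to -0.64 in control samples and from -1.14 to -0.92 in cKO samples. For the cell type comparisons, leaving out both CD8 samples numbered 1 equals leaving out the single such sample they hold, so it has no value of its own. No filter, at least 10 counts and adjusted p alone were run for counts and medians only. Few samples per group limit the DP comparison, where the exact test cannot go below 0.1, and depth is lower in CD8 samples than in DP samples.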
